A study of Mus musculus with 12 samples.

Results

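The livers of chow-fed mice lacking *Pctp* were compared with those of chow-fed wild-type (WT) mice by RNA-seq. The comparison took in 6 of the 12 libraries of the series, 3 from WT and 3 from *Pctp*-/- mice, each library from a different liver. *Pctp* encodes phosphatidylcholine transfer protein (PC-TP, also STARD2), a cytosolic START domain protein that carries phosphatidylcholine between membranes, is abundant in liver, and binds the acyl-CoA thioesterase THEM2. The knockout mice lacked PC-TP in the whole body, so an effect in liver may follow from its loss in hepatocytes or in another organ. The study worked with male mice. The deleted part of the gene is not given in the sources used here. The study's methods state an age, and a shorter daytime and a longer overnight fast before tissues were taken, for its chow and high-fat diet mice, but do not tie either fast to these livers. The remaining 6 libraries came from WT and *Pctp*-/- mice on the methionine and choline deficient (MCD) diet, and served here to share the estimate of spread and to compare the 2 diets. Expression was given as FPKM, fragment counts relative to gene length and library size. Of 35275 genes in the table, 12466 reached a mean of 0.5 FPKM across the 12 libraries and were tested with limma on log2(FPKM + 1), on which scale every log2 difference below is given as *Pctp*-/- minus WT. A gene was called changed at a Benjamini-Hochberg adjusted p under 0.05.

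The chow libraries held 30486576 to 55179468 uniquely mapped reads, 77.59 to 79.41% of all reads. No library repeated another. *Pctp*-/- replicate 1 stood apart: 515 genes (4.13% of those tested) lay at least 0.5 on the log2 scale beyond all 5 other chow libraries, 462 of them below, against 48 to 86 genes in each of the others. Its share of spliced reads was 40.02%, against 34.11 to 37.31% in the other chow libraries. The nuclear RNA *Neat1* was at 5.01 FPKM in that library and at 49.0 to 64.0 FPKM in the other 5. Called genes that lost their call without this library are named, and the larger shifts in counts are given. The 9 measured hepatocyte markers summed to 48400 to 55300 FPKM in WT and 52300 to 54200 FPKM in *Pctp*-/- livers. In bulk liver RNA, fewer cells of a type and less RNA per cell cannot be told apart.

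*Pctp* itself (ENSMUSG00000020553, GRCm38 chr11:89982665-90002894, minus strand) was at 2.25, 1.21 and 2.65 FPKM in WT replicates 1 to 3 and at 0.566, 0.364 and 0.330 FPKM in *Pctp*-/- replicates 1 to 3. The 2 groups did not overlap, and the knockout libraries kept a low level of *Pctp* RNA. The log2 difference was -1.07 (SE 0.23), with an adjusted p of 0.15 from limma. The exact permutation test, two-sided, gave p = 0.1, the smallest p that 3 mice against 3 allow. With a pseudocount of 0.1 in place of 1 the log2 difference was -2.0. In the separate MCD-fed mice *Pctp* was called by limma, with a log2 difference of -2.33 (adjusted p = 0.000624).

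On chow, 17 of the 12466 tested genes (0.136%) were called changed between the genotypes. Of these, 7 were higher in *Pctp*-/- livers (0.0562% of the tested genes) and 10 were lower (0.0802%). Of the 17, 6 lie near *Pctp* on chromosome 11, 3 are circadian clock genes (*Dbp*, *Per3* and *Bhlhe41*), and the others are *Zbtb16*, *Bcl6*, *Pnrc1*, *Ddc*, *Lrfn3*, *Csrnp1*, *Klf13* and *Gm10509*. In all 17 the values of the 3 *Pctp*-/- livers lay outside the range of the 3 WT livers, as they did for 1316 tested genes, or 10.6%. At an unadjusted p under 0.05 there were 870 genes (6.98%), 417 higher (3.35%) and 453 lower (3.63%). Without *Pctp*-/- replicate 1 there were 1230 (9.87%), 845 higher and 385 lower, so the directions were no longer balanced, and with another chow library left out there were 659 (without WT replicate 2) to 1318 (without WT replicate 1). The median log2 difference over all tested genes was 0.006, and the median SE was 0.136. The count rested on single libraries: it was 34 without WT replicate 1, 9 without WT replicate 2, 8 without *Pctp*-/- replicate 2 and 11 without *Pctp*-/- replicate 3. Without *Pctp*-/- replicate 1 it was 12, and 8 of the 17 genes were among them. All 17 kept their direction there, which groups that did not overlap made certain. Their unadjusted p from limma was at most 0.000408, but the 17 were picked from these same livers.

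**Figure D1:**
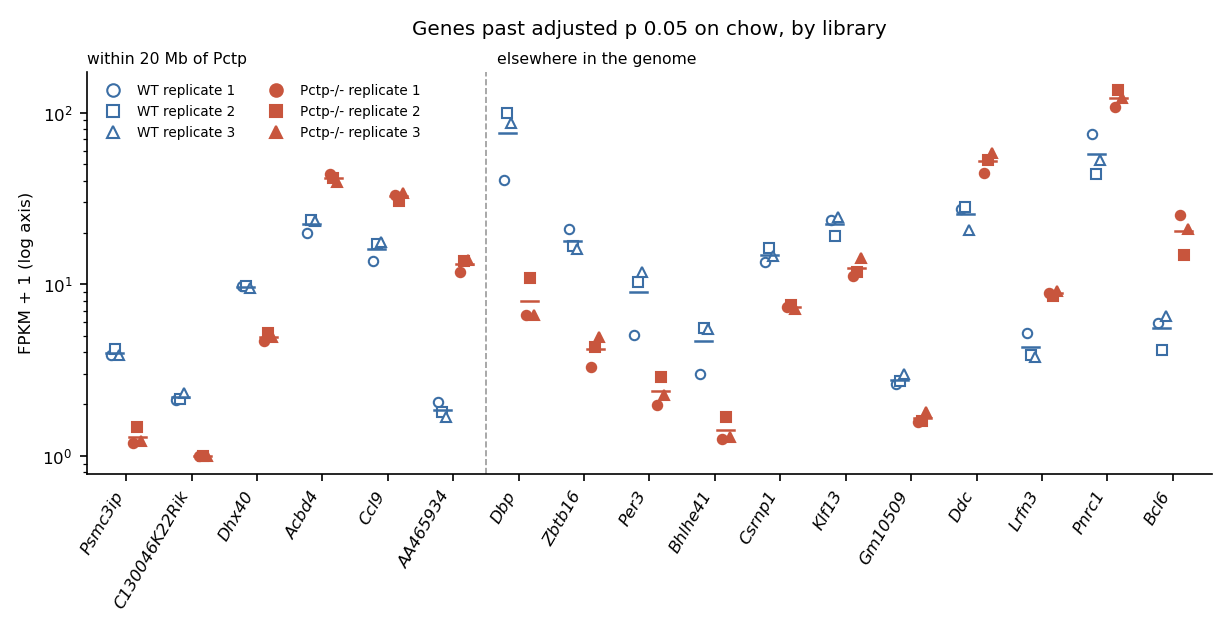
FPKM + 1 on a log axis for the 17 genes called on chow, with 1 point per liver (open blue, WT; filled red, *Pctp*-/-; marker shape, replicate number) and a bar at the group mean. The 6 genes left of the dashed line lie within 20 Mb of *Pctp*, and in none of the 17 genes did the groups overlap.

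Of the 17 called genes, 6 lie within 20 Mb of *Pctp*. *AA465934*, an RNA of unassigned function 6.7 Mb from *Pctp* (chr11:83291699-83294632, plus strand), was at 1.07, 0.793 and 0.684 FPKM in WT and at 10.7, 12.6 and 12.8 FPKM in *Pctp*-/- livers. The mean was 14.1-fold higher in *Pctp*-/-, with a log2 difference of 2.82 (SE 0.17, adjusted p = 1.39e-05), and no other tested gene had a smaller p. *Psmc3ip*, a partner of the meiotic recombinases (chr11:101091823-101095436, minus strand), was at 2.87, 3.18 and 2.85 FPKM in WT and at 0.192, 0.473 and 0.214 FPKM in *Pctp*-/- livers. It fell by 1.62 on the log2 scale (SE 0.18, adjusted p = 0.00263). In both genes the groups were far apart relative to their own ranges.

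*Dhx40*, a putative RNA helicase 3.2 Mb from *Pctp* (chr11:86768846-86807746), was at 8.71, 8.72 and 8.48 FPKM in WT and at 3.64, 4.16 and 3.92 FPKM in *Pctp*-/- livers (log2 difference -0.98, SE 0.08, adjusted p = 0.000189). *Acbd4*, an acyl-CoA binding domain protein of peroxisomes 13.1 Mb away (chr11:103101682-103112200), was at 18.9, 22.6 and 22.5 FPKM in WT and at 42.9, 40.8 and 38.3 FPKM in *Pctp*-/- livers (0.90, SE 0.10, adjusted p = 0.0018). *Ccl9*, a chemokine that attracts myeloid cells (chr11:83572919-83578636), was at 12.6, 16.1 and 16.5 FPKM in WT and at 32.1, 29.4 and 33.2 FPKM in *Pctp*-/- livers (1.03, SE 0.15, adjusted p = 0.0249). In each of the 3 genes the groups were separated by more than the range within either. *Ccl9* was not called by limma without *Pctp*-/- replicate 1 (adjusted p = 0.0651). *C130046K22Rik*, a noncoding RNA 13.7 Mb away, was at 1.10, 1.13 and 1.33 FPKM in WT and listed at 0 in every *Pctp*-/- liver (adjusted p = 0.00134). Exons of *Psmc3ip* and *C130046K22Rik* overlap those of *Mlx* and *Gosr2* on the other strand, and whether the counting used strand is not given in the sources used here.

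The called genes were set against their position. Within 20 Mb of *Pctp*, 6 of 458 tested genes were called (1.31%), against 1 of 565 on the rest of chromosome 11 (0.177%) and 10 of 11443 on other chromosomes (0.0874%). The median log2 difference of the 458 genes was 0.01, and 59 of them (12.9%) had groups that did not overlap, against 10.6% of all tested genes. The tested genes next to *Pctp* on the side of higher coordinates were not called: *Mmd*, 0.267 Mb away, had a log2 difference of 0.0276, *Hlf*, 0.354 Mb away, one of -0.343, and *Cox11*, 0.656 Mb away, one of 0.0472. The same 6 genes, with the same signs, were called in the separate mice on the MCD diet, where 102 genes (0.818%) were called in all. Of the 458 genes within 20 Mb of *Pctp*, 11 (2.4%) were called there, *Pctp* itself among them. On MCD, *AA465934* was at 2.34, 2.47 and 1.34 FPKM in WT and 15.0, 17.5 and 22 FPKM in *Pctp*-/- livers, and *Psmc3ip* at 5.49, 10.8 and 8.79 FPKM in WT and 0.659, 0.533 and 0.427 FPKM in *Pctp*-/- livers. With only the 6 chow libraries in the fit, 3 genes of the region were called. The strain background of the whole-body *Pctp*-/- mice is not given in the sources used here. The cause of the differences near *Pctp* was not tested.

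**Figure D2:**
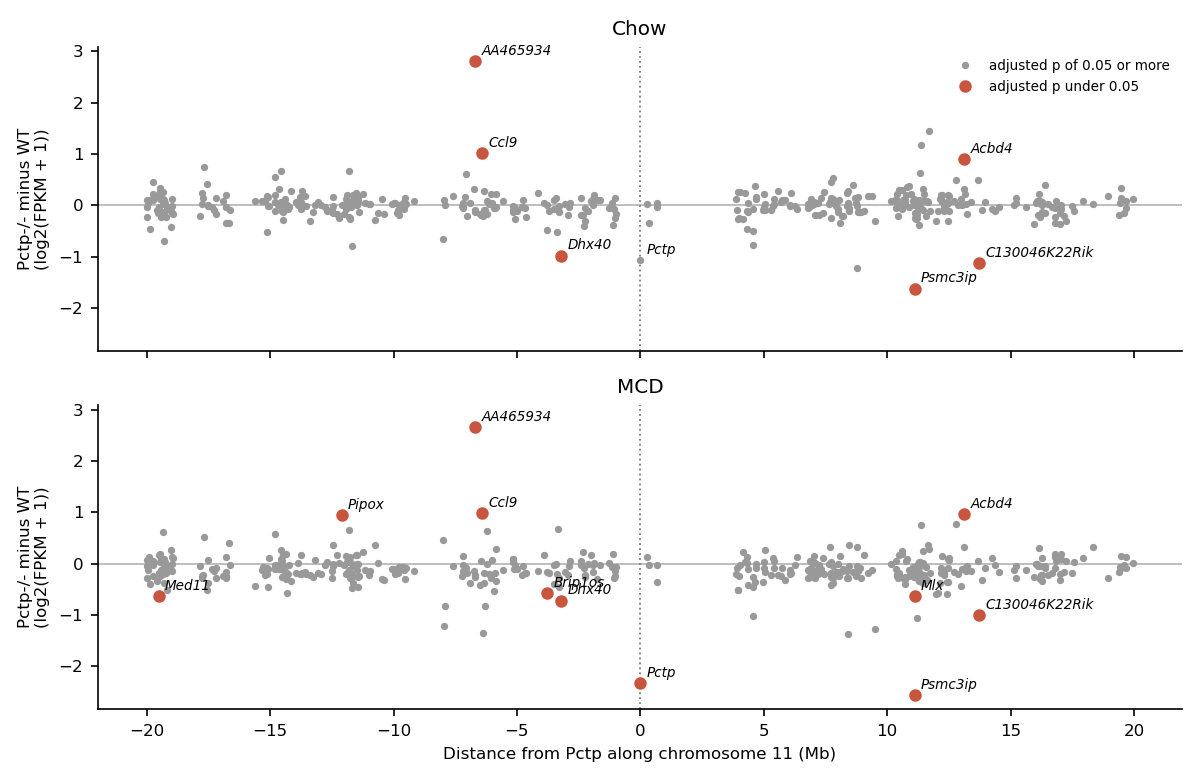
The log2 difference between *Pctp*-/- and WT livers on chow (top) and on MCD (bottom) of each tested gene within 20 Mb of *Pctp*, against its distance along chromosome 11 in Mb. Red points have an adjusted p under 0.05; the 6 genes red on chow are red with the same sign on MCD, and most neighbors lie near 0.

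Genes of the circadian clock formed the second group. In the core loop, the activators BMAL1 (*Arntl*) with CLOCK or NPAS2 bind E-boxes and switch on the PER, CRY and REV-ERB (*Nr1d1*, *Nr1d2*) repressors, which then silence the activators. The bZIP proteins DBP and TEF bind D-boxes of output genes, which NFIL3 represses. *Dbp* was at 39.5, 98.3 and 86.0 FPKM in WT and at 5.58, 9.85 and 5.64 FPKM in *Pctp*-/- livers. Its mean was 10.6-fold lower in *Pctp*-/- livers (log2 difference -3.18, SE 0.54, adjusted p = 0.0492). *Per3* was at 4.07, 9.30 and 10.7 FPKM in WT and at 0.969, 1.89 and 1.26 FPKM in *Pctp*-/- livers (-1.86, SE 0.31, adjusted p = 0.0478). *Bhlhe41* (DEC2), an E-box repressor, was at 2.00, 4.56 and 4.46 FPKM in WT and at 0.259, 0.671 and 0.282 FPKM in *Pctp*-/- livers (-1.69, SE 0.28, adjusted p = 0.0453). In each of these 3 genes WT replicate 1 had the lowest WT value and still lay above every *Pctp*-/- liver. Exons of *Dbp* and *Bhlhe41* overlap *Sphk2* and *Gm43909* on the other strand. These calls sat near the threshold: without *Pctp*-/- replicate 1 the adjusted p was 0.128 for *Dbp*, 0.128 for *Per3* and 0.12 for *Bhlhe41*.

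The whole list of 10 clock repressors had 2 called genes and 9 with an unadjusted p under 0.05, against 6.98% of all tested genes. Of those 9, 8 were lower in *Pctp*-/- livers, and the median log2 difference of the list was -0.76, against 0.006 for all genes. *Ciart*, a repressor that binds BMAL1 and CLOCK, was at 0.911, 5.90 and 13.3 FPKM in WT and at 0.205, 0.511 and 0.571 FPKM in *Pctp*-/- livers (-2.01, adjusted p = 0.254). *Nr1d1* (REV-ERBα), a heme-binding nuclear receptor, was at 78.3, 104 and 105 FPKM in WT and at 31.5, 49.2 and 42.2 FPKM in *Pctp*-/- livers (-1.22, adjusted p = 0.0754). The groups of both genes were apart, although neither passed the test. *Nr1d2* (-0.72), *Cry2* (-0.58), *Per2* (-0.74) and *Bhlhe40* (-0.79), named after their values were seen, had adjusted p of 0.102 to 0.438. *Cry1*, whose values overlapped, had a log2 difference of 0.58 (adjusted p = 0.714), and *Per1*, at 11.6, 23.2 and 24.0 FPKM in WT and 4.72, 17.2 and 19.9 FPKM in *Pctp*-/- livers, -0.60 (adjusted p = 0.926). Leaving out any 1 library left 7 to 9 of the 10 with an unadjusted p under 0.05 and a median of -0.97 to -0.70.

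Of the activators, *Arntl* and *Npas2* were higher on average in *Pctp*-/- livers, without passing the test. *Arntl* was at 4.26, 1.42 and 2.06 FPKM in WT and at 7.70, 6.12 and 6.67 FPKM in *Pctp*-/- livers (1.2, SE 0.28, adjusted p = 0.195). *Npas2* was at 0.258, 0.194 and 0.0913 FPKM in WT and at 1.69, 0.919 and 0.719 FPKM in *Pctp*-/- livers (0.81, SE 0.18, adjusted p = 0.187). Of the 7 listed activators 5 were tested and 0 called, with 3 higher, 2 lower and a median of 0.17, and *Clock* itself was at 8.69, 4.73 and 4.81 FPKM in WT and 7.93, 6.60 and 5.74 FPKM in *Pctp*-/- livers, an overlap. *Rora*, a nuclear receptor that activates *Arntl*, overlapped between the groups as well (-0.01).

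Of 17 clock outputs, 1 (*Dbp*) was called and 10 had an unadjusted p under 0.05 (6.98% of all tested genes did). Of the 10, 7 were lower in *Pctp*-/- livers, and the median of the list was -0.42. The number was 8 without *Pctp*-/- replicate 1, with a median of -0.31, and 7 to 15 with any 1 chow library left out. *Tef*, the relative of *Dbp*, was at 30.5, 45.5 and 54.8 FPKM in WT and at 13.7, 18.3 and 16.3 FPKM in *Pctp*-/- livers (-1.35, adjusted p = 0.0859). The deubiquitinase *Usp2* was at 2.44, 5.6 and 10.6 FPKM in WT and at 0.437, 1.06 and 1.2 FPKM in *Pctp*-/- livers (-1.78, adjusted p = 0.155), and the mitotic kinase *Wee1* at 1.88, 4.73 and 5.61 FPKM against 1.51, 1.77 and 0.962 FPKM (-1.0, adjusted p = 0.368). *Nfil3*, the D-box repressor, named after its values were seen, lay on the other side, at 17.3, 15.6 and 20.7 FPKM in WT and 40.6, 31.0 and 33.3 FPKM in *Pctp*-/- livers (0.93, adjusted p = 0.197). Thus members of the repressor, activator and output groups were set apart between the genotypes with different signs, mostly short of the adjusted threshold. The fasts that the study's methods describe ended at noon or in the afternoon. Which of them preceded each of these livers is not given in the sources used here. Whether the fast or the time of collection differed between the genotypes is not given either. Their part in the differences of this report was not tested.

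**Figure D3:**
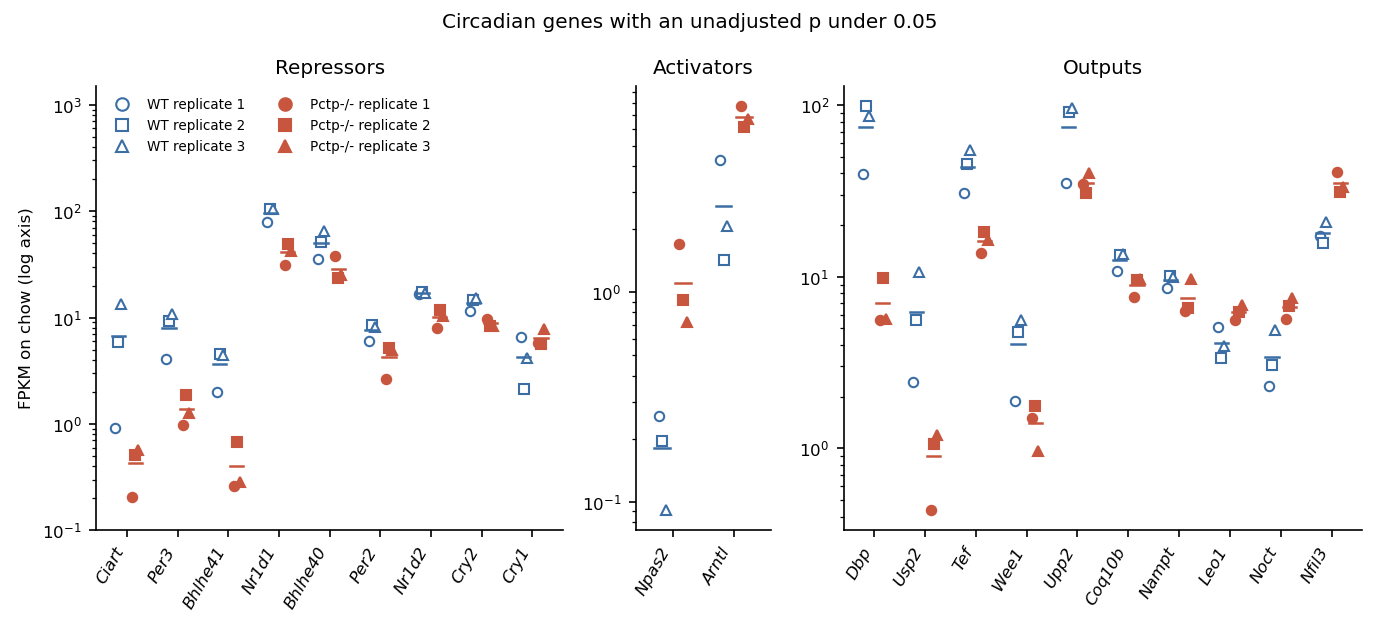
FPKM on chow (log axis, its range set for each panel) of the clock repressors, activators and outputs with an unadjusted p under 0.05, with 1 point per liver and a bar at the group mean. The 3 *Pctp*-/- livers lie below the 3 WT livers for *Dbp*, *Per3*, *Bhlhe41*, *Tef* and *Nr1d1*, and above them for *Arntl*, *Npas2* and *Nfil3*.

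The sequence before the transcription start was read for these genes, since E-boxes (CACGTG) and D-boxes (TTATGTAA or TTACGTAA) are the elements that the clock proteins bind. In the RefSeq promoter table of GRCm38.p6, on both strands, 6.02% of 32851 promoters held an E-box in the 250 bases before the start and 0.931% held a D-box. Of the 9 repressors with an unadjusted p under 0.05, 7 were in the table: *Ciart*, *Cry1* and *Bhlhe41* held an E-box and *Per3* held a D-box. Of the 10 such outputs, 9 were in the table, and *Tef* and *Coq10b* held an E-box and *Coq10b* a D-box. An E-box was also in 2 of 8 such glucocorticoid-responsive genes and in 1 of 5 such genes of growth hormone signaling (*Bcl6*). The windows of *Per3* (chr4:151044666-151044915, minus strand) and of the inner of 2 *Tef* starts (chr15:81811164-81811413, plus strand) are shown because they lie outside any annotated exon, with the D-boxes of *Per3* and the E-box of *Tef* in capitals.
Per3 promoter: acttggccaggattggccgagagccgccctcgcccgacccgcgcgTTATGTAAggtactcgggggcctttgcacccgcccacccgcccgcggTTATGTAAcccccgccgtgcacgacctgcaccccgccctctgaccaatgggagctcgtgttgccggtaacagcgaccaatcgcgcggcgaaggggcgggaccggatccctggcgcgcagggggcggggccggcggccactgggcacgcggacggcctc
Tef promoter: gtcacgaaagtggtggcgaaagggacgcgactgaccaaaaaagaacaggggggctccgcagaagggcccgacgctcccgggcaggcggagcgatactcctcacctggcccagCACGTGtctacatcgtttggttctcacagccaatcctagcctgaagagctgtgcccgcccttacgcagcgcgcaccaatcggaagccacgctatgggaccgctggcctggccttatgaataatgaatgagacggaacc
The D-boxes of *Per3* begin 205 and 158 bases before its start (positions -205 and -158), and the E-box of *Tef* 138 bases before (position -138). A match marks letters in this window and was not tied to binding in these livers.

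*Zbtb16* and *Bcl6*, relatives in the BTB zinc finger family of transcriptional repressors, moved in opposite directions. *Zbtb16* (PLZF; chr9:48654297-48836222), a target of the glucocorticoid receptor, was at 19.9, 15.8 and 15.1 FPKM in WT and at 2.27, 3.33 and 3.93 FPKM in *Pctp*-/- livers. It fell by 2.11 on the log2 scale (SE 0.17, adjusted p = 0.000189), a mean 5.32-fold lower, and passed the threshold in 18 of 18 alternative analyses. *Bcl6* (chr16:23965052-23988852), which in liver competes with STAT5 for its sites and is held down by growth hormone, was at 4.95, 3.15 and 5.54 FPKM in WT and at 24.4, 13.7 and 20 FPKM in *Pctp*-/- livers. It rose by 1.87 (SE 0.23, adjusted p = 0.00536), a mean 4.26-fold higher, and by 1.69 without *Pctp*-/- replicate 1 (adjusted p = 0.02). An exon of *Bcl6* overlaps *Gm37419* on the other strand.

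Around *Bcl6*, 13 of 14 listed genes of growth hormone, STAT5 and BCL6 signaling were tested, with 1 called. At an unadjusted p under 0.05 there were 5 (6.98% of all tested genes), 3 higher and 2 lower. The 2 STAT5-induced feedback inhibitors with the largest log2 differences were lower in *Pctp*-/- livers, without passing the test. *Cish* was at 9.80, 7.21 and 1.22 FPKM in WT and at 0.116, 0.844 and 0.221 FPKM in *Pctp*-/- livers (-2.10, SE 0.48, adjusted p = 0.187). *Socs3* was at 14.7, 12.1 and 6.89 FPKM in WT and at 3.68, 4.27 and 5.28 FPKM in *Pctp*-/- livers (-1.13, SE 0.22, adjusted p = 0.102). In both genes the groups were apart. *Socs2*, named after its values were seen, overlapped, at 13.7, 25.0 and 2.05 FPKM in WT and 1.59, 6.24 and 7.14 FPKM in *Pctp*-/- livers (-0.98, adjusted p = 0.843). Besides *Bcl6*, the higher genes at an unadjusted p under 0.05 were *Stat5a* (0.38, adjusted p = 0.486) and *Stat5b* (0.35, adjusted p = 0.597), themselves within 20 Mb of *Pctp*. The receptor *Ghr* (0.11) and the secreted products *Igf1* (0.01) and *Igfals* (0.03) overlapped between the groups. Without WT replicate 2, 3 of the 13 genes had an unadjusted p under 0.05.

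The site bound by STAT5 and BCL6 (TTCNNNGAA) was present within 250 bases before the start in 7.02% of the promoters in the table. All 5 genes with an unadjusted p under 0.05 were in the table, and *Bcl6* and *Socs3* held the site. The site was not particular to this list. Among such genes it was also in 3 of 8 glucocorticoid-responsive genes and 1 of 9 clock outputs (*Dbp*), and in 0 of 7 clock repressors. The 2 *Bcl6* windows are shown because each held the site, 1 window before the outer start (chr16:23988853-23989102, minus strand) with 1 such site and an E-box, the other before an inner start (chr16:23981284-23981533, minus strand) with 3 sites, and both lie outside annotated exons. Capitals mark the matches, none of which overlapped.
Bcl6 outer promoter: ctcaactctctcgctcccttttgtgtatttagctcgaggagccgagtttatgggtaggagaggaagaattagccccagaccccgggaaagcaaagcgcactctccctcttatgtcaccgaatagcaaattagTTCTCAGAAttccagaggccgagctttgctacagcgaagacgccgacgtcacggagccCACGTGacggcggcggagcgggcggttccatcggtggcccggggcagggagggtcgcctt
Bcl6 inner promoter: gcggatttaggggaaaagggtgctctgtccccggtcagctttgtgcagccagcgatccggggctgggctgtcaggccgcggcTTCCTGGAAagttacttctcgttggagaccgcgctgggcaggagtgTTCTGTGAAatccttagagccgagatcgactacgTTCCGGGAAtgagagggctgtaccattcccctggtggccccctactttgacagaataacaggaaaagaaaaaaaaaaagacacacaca

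Sex-biased genes of liver, many of which follow the growth hormone pattern through STAT5 and BCL6, were not called. Of 20 tested male-biased genes 19 had a lower mean in *Pctp*-/- livers (median -0.21), 2 with an unadjusted p under 0.05: the complement gene *C6* (-0.31, adjusted p = 0.617) and the urinary protein gene *Mup11* (-0.78, adjusted p = 0.675), whose near-identical relatives make its level uncertain. Over all tested genes 6010 of 12466 had a lower mean, and 6.98% had an unadjusted p under 0.05. Without *Pctp*-/- replicate 1, 15 of the 20 male-biased genes were lower, with a median of -0.10. The number of male-biased genes with an unadjusted p under 0.05 was 8 without *Pctp*-/- replicate 2 (median -0.40) and 6 without WT replicate 1 (median -0.31). It was 1 without *Pctp*-/- replicate 1, and 0 without WT replicate 2 or *Pctp*-/- replicate 3. Over all tested genes the number was 930, 1318, 1230, 659 and 885 in these fits, in the same order. Of 18 female-biased genes 9 were higher and 9 lower, and *Cyp2b9*, at 1.5, 0.518 and 1.82 FPKM in WT and 10.8, 0.854 and 7.89 FPKM in *Pctp*-/- livers, had the only unadjusted p under 0.05 (1.39, adjusted p = 0.553). The number was 2 without *Pctp*-/- replicate 2 and 0 without WT replicate 2 or *Pctp*-/- replicate 1 or 3.

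The glucocorticoid-responsive list did not move as a unit. Of its 27 tested genes 1 (*Zbtb16*) was called and 10 had an unadjusted p under 0.05 (6.98% of all tested genes did). Of the 10, 6 were higher and 4 lower, and the median of the list was 0.37. *Fkbp5*, the chaperone that restrains the receptor, was at 12.1, 31.2 and 18.1 FPKM in WT and at 3.03, 4.70 and 11.7 FPKM in *Pctp*-/- livers (-1.60, adjusted p = 0.239). *Igfbp1*, a fasting-induced secreted protein, was at 21.3, 112 and 113 FPKM in WT and at 326, 198 and 131 FPKM in *Pctp*-/- livers (1.63, adjusted p = 0.555), and the mTOR inhibitor *Ddit4* at 4.57, 2.44 and 3.40 FPKM against 5.52, 12.6 and 13.9 FPKM (1.32, adjusted p = 0.554). Genes with opposite signs thus stood side by side in the list, as with *Klf9* (-0.58) and *Sgk1* (0.92), named after their values were seen. The receptor *Nr3c1* was at 15.3, 11.5 and 12 FPKM in WT and 13.8, 10.8 and 11.3 FPKM in *Pctp*-/- livers, an overlap. The median of the list was 0.11 without WT replicate 1 and 0.61 without WT replicate 3, and without *Pctp*-/- replicate 3 the number with an unadjusted p under 0.05 was 6.

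The remaining called genes had changes of 1.88-fold to 2.72-fold between group means. *Pnrc1*, a coactivator of nuclear receptors, was at 73.9, 43.0 and 52.2 FPKM in WT and rose to 107, 134 and 121 FPKM in *Pctp*-/- livers (1.12, SE 0.18, adjusted p = 0.0439). *Ddc*, the aromatic amino acid decarboxylase on chromosome 11 but 78.2 Mb from *Pctp*, was at 26.6, 27.3 and 19.7 FPKM in WT and rose to 43.7, 52.0 and 57.1 FPKM (1.03, SE 0.16, adjusted p = 0.0272). *Lrfn3*, a synaptic adhesion protein in neurons, was at 4.22, 2.85 and 2.77 FPKM in WT and 7.92, 7.49 and 8.07 FPKM in *Pctp*-/- livers (1.06, SE 0.16, adjusted p = 0.0272). These 3 genes were higher in every *Pctp*-/- liver than in any WT liver. *Csrnp1*, a nuclear protein induced by AXIN1 whose exons overlap *1700019L13Rik* on the other strand, was at 12.4, 15.2 and 13.6 FPKM in WT and 6.36, 6.56 and 6.19 FPKM in *Pctp*-/- livers (-0.99, SE 0.15, adjusted p = 0.0249). *Klf13*, a zinc finger factor, was at 22.6, 18 and 23.8 FPKM in WT and 10.2, 10.8 and 13.3 FPKM in *Pctp*-/- livers (-0.85, SE 0.14, adjusted p = 0.0453). *Gm10509*, a predicted gene, was at 1.62, 1.73 and 1.99 FPKM in WT and 0.576, 0.589 and 0.801 FPKM in *Pctp*-/- livers (-0.75, SE 0.12, adjusted p = 0.0304). Of these 6, only *Ddc* passed the threshold without *Pctp*-/- replicate 1.

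The 12 genes next in order of p did not pass the test, with adjusted p of 0.0601 to 0.0859. *Fpgs*, which adds glutamates to folates and keeps them in the cell, was at 77.6, 65.6 and 80.3 FPKM in WT and at 109, 114 and 106 FPKM in *Pctp*-/- livers (0.55). *Tbx3*, a pericentral transcription factor, was at 7.84, 7.36 and 7.10 FPKM in WT and 18.2, 15.9 and 10.9 FPKM in *Pctp*-/- livers (0.89). *Il1r1*, the interleukin 1 receptor, was at 17.9, 19.9 and 21.8 FPKM in WT and 7.61, 8.27 and 13.4 FPKM in *Pctp*-/- livers (-0.99). The others were *Gm16559* (-1.46), the chromatin factor *Arid5b* (-1.14), *1700001L05Rik* (-0.67), *Nr1d1*, the chloride channel protein *Clic3* (1.53), the focal adhesion protein *Tns2* (-0.91), the zinc and iron importer *Slc39a14* (-0.59), *Tef* and *Gm4875*. *Gm4875* was listed at 0 in 2 *Pctp*-/- livers and at 0.0880 FPKM in the third, against 1.34, 0.760 and 2.46 FPKM in WT livers. *Clic3* passed the threshold without *Pctp*-/- replicate 1 (adjusted p = 0.0172). Exons of *Fpgs*, *Gm16559*, *Tbx3*, *Nr1d1* and *Tef* overlap another gene on the other strand.

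The study relates PC-TP to the peroxisome proliferator-activated receptors (PPARs), nuclear receptors that bind fatty acids and switch on genes of fatty acid handling. With a Wald test, the paper reports many PPAR-regulated genes among those the knockout changed on chow and on MCD. The values below come from limma on FPKM, which called fewer genes on each diet than the paper counts. The list of targets was chosen here, so the 2 results are not like for like. *Ppara*, the main PPAR of liver, was at 43.5, 27.9 and 40.1 FPKM in WT and at 36.8, 26.6 and 24.9 FPKM in *Pctp*-/- livers (-0.32, SE 0.18, adjusted p = 0.804). *Ppard* was at 3.03, 3.78 and 3.38 FPKM in WT and at 4.88, 4.46 and 3.72 FPKM in *Pctp*-/- livers (0.28, SE 0.15, adjusted p = 0.794), and *Pparg* at 3.08, 3.10 and 2.95 FPKM against 4.07, 2.67 and 2.16 FPKM (-0.06, SE 0.18, adjusted p = 0.99). The values of all 3 receptors overlapped between the genotypes. Of 48 tested PPAR targets, 0 were called by limma and 3 had an unadjusted p under 0.05 (6.98% of all tested genes did), and 23 were higher and 25 lower with a median of -0.01. The number was 0 without WT replicate 3, 1 without WT replicate 2, and 2 to 4 without any other chow library. The 3 were *Cyp4a32*, a fatty acid hydroxylase with near-identical relatives (-0.77, adjusted p = 0.703), *Cpt1a*, which commits fatty acids to mitochondrial oxidation (-0.37, adjusted p = 0.647), and the acyl-CoA synthetase *Acsl3* (0.33, adjusted p = 0.679). *Cpt1a* was at 83.5, 66.4 and 72.5 FPKM in WT and 60.3, 58.9 and 51.6 FPKM in *Pctp*-/- livers, without overlap. Among 18 receptors and partners 1 was called (*Pnrc1*), and 5 had an unadjusted p under 0.05, among them the coactivators *Lpin1* (-1.06, adjusted p = 0.47) and *Ppargc1b* (-0.76, adjusted p = 0.392) and the receptor *Rxrg* (0.42, adjusted p = 0.625), a number that was 3 without *Pctp*-/- replicate 3.

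Of the START proteins and thioesterases related to PC-TP, none was called by limma. *Acot13*, which encodes THEM2, was at 29.9, 43.9 and 46.1 FPKM in WT and at 37.2, 40.2 and 50.8 FPKM in *Pctp*-/- livers (0.11, SE 0.17, adjusted p = 0.981). *Stard7* was at 49.0, 44.5 and 44.0 FPKM in WT and 52.9, 47.5 and 45.4 FPKM in *Pctp*-/- livers (0.08, SE 0.10), and *Stard10*, the other phosphatidylcholine carrier of the subfamily, at 953, 840 and 816 FPKM against 868, 1080 and 990 FPKM (0.17, SE 0.11). All 3 overlapped between the genotypes. Of the 14 tested genes of the list, 0 were called and 2 had an unadjusted p under 0.05 (6.98% of all tested genes did). These were *Pctp* and the sterol carrier *Stard4* (-0.35, adjusted p = 0.646). The number was 1 without WT replicate 2 or *Pctp*-/- replicate 3.

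**Figure D4:**
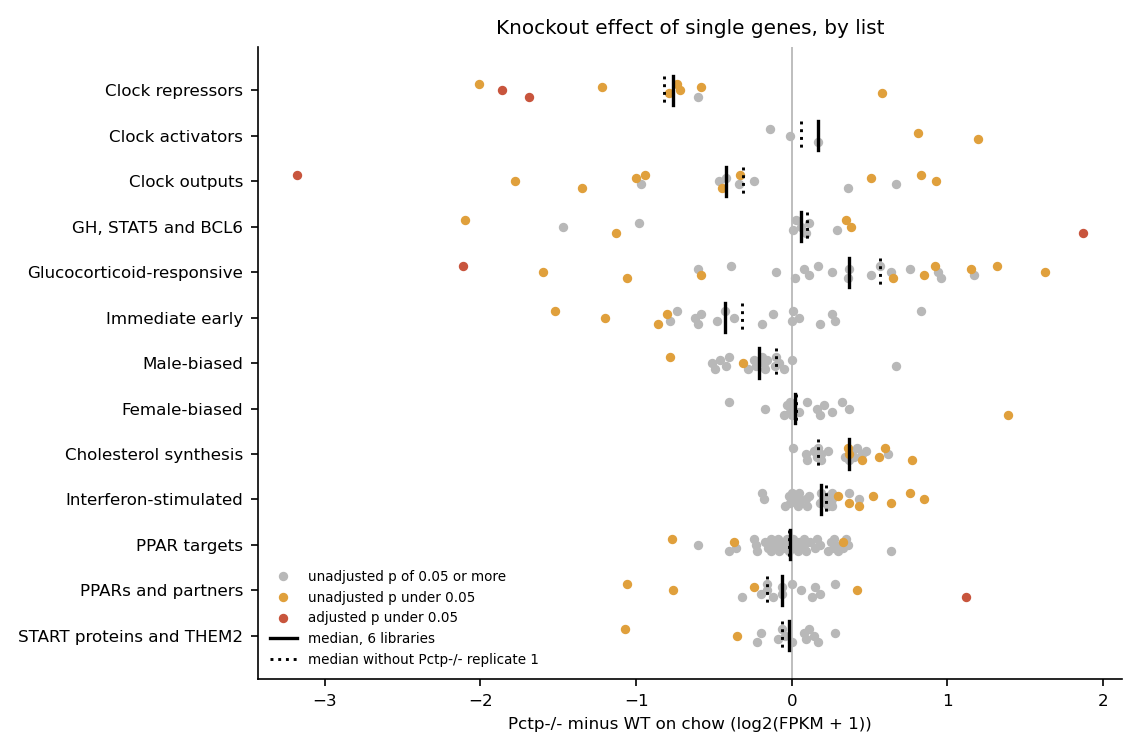
The log2 difference between *Pctp*-/- and WT livers on chow of each tested gene of 13 lists, colored by its p, with the list's median from all 6 livers (solid bar) and without *Pctp*-/- replicate 1 (dotted bar). The clock repressors lie mostly left of 0 (median -0.76), PPAR targets center on 0 (median -0.01), and the bar of cholesterol synthesis moves from 0.37 to 0.17 when that library is left out.

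Cholesterol synthesis genes, targets of SREBP2, leaned to 1 side. All 23 had a higher mean in *Pctp*-/- livers (51.8% of all tested genes did), with a median of 0.37. Of the 23, 0 were called and 6 had an unadjusted p under 0.05 (6.98% of all tested genes did). *Mvd*, which makes isopentenyl pyrophosphate, was at 14.6, 14.9 and 9.88 FPKM in WT and at 26.6, 17.5 and 25.2 FPKM in *Pctp*-/- livers (0.77, adjusted p = 0.355), and *Mvk*, mevalonate kinase, at 10.5, 10.5 and 9.69 FPKM against 21, 14.4 and 13.7 FPKM (0.60, adjusted p = 0.314). In both genes the groups did not overlap. *Pctp*-/- replicate 1 had the highest value of *Mvd* and *Mvk*, and without it 17 of 23 genes were higher, the median was 0.17 and 3 had an unadjusted p under 0.05. Without *Pctp*-/- replicate 2 that number was 13, and after quantile normalization 22 of 23 genes were higher.

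Interferon-stimulated genes and immunoproteasome genes had 26 of 32 means higher in *Pctp*-/- livers (51.8% of all tested genes did). Of the 32, 0 were called and 7 had an unadjusted p under 0.05 (6.98% of all tested genes did), all 7 higher. *Psmb9*, an immunoproteasome subunit, was at 4.13, 4.90 and 5.03 FPKM in WT and 7.48, 6.11 and 10.5 FPKM in *Pctp*-/- livers (0.64, adjusted p = 0.231), and the GTPase *Igtp* at 13.6, 14.4 and 13.0 FPKM against 17.9, 20.6 and 44.3 FPKM (0.85, adjusted p = 0.392). The peptide transporter *Tap1* (0.52) and the apoptosis factor *Xaf1* (0.76), within 20 Mb of *Pctp*, were likewise apart between the groups, while *Isg15* (0.19) and *Ifit1* (0.04), named after their values were seen, overlapped. *Pctp*-/- replicate 3 had the highest value of *Psmb9*, *Igtp*, *Tap1* and *Xaf1*, and the median of the list fell from 0.19 to 0.06 without it, while 29 of 32 genes were higher and 9 had an unadjusted p under 0.05 without *Pctp*-/- replicate 1.

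Among immediate early genes 0 of 21 were called and 4 had an unadjusted p under 0.05, all lower in *Pctp*-/- livers (median of the list -0.43). *Junb*, an AP-1 subunit, was at 125, 166 and 186 FPKM in WT and 62.7, 106 and 95.1 FPKM in *Pctp*-/- livers (-0.86, adjusted p = 0.178), and *Klf10*, a TGF-β induced factor, at 12.6, 16.3 and 18.5 FPKM against 5.35, 5.36 and 8.27 FPKM (-1.2, adjusted p = 0.254). *Atf3* (-1.52, adjusted p = 0.538) and *Fosb* (-0.80, adjusted p = 0.682) overlapped, with WT replicate 1 among the *Pctp*-/- values in both. Without WT replicate 1 the number was 10 of 21, and without WT replicate 2 or *Pctp*-/- replicate 3 it was 2. Of 22 methionine and folate genes 0 were called and 5 had an unadjusted p under 0.05, among them *Bhmt*, which spends choline-derived betaine to make methionine. *Bhmt* was at 259, 317 and 226 FPKM in WT and at 421, 398 and 339 FPKM in *Pctp*-/- livers, without overlap (0.54, SE 0.13, adjusted p = 0.226). Among the others were *Nnmt* (-0.76), *Mtrr* (-0.35) and *Mat1a* (-0.33), the last named after its values were seen. The number was 2 without WT replicate 3 or *Pctp*-/- replicate 3, and 3 without WT replicate 2. Genes of phosphatidylcholine synthesis (2 of 21 with an unadjusted p under 0.05), lipogenesis (1 of 20), bile acids (2 of 28), glucose metabolism (3 of 19), acute phase proteins (0 of 24), the NRF2 response (0 of 17) mitochondrial transcripts (0 of 13), the ATF4 response (2 of 16), the unfolded protein response (1 of 22), heat shock (0 of 14), xenobiotic metabolism (2 of 19), proliferation (2 of 12), and pericentral (2 of 11) and periportal (1 of 11) genes held no gene called by limma. Over all tested genes the share at an unadjusted p under 0.05 was 6.98%. These list counts rested on single libraries, and the count over all tested genes shifted too. It was 870 of 12466 with all livers and 1230 (9.87%) without *Pctp*-/- replicate 1. Without WT replicate 1 it was 1318, and without *Pctp*-/- replicate 2 it was 930. Without *Pctp*-/- replicate 1, 8 of 22 genes of the unfolded protein response had an unadjusted p under 0.05, all 8 higher (median 0.20, against 0.02 with all livers), as had 3 of 14 heat shock genes, all 3 higher, and 4 of 16 ATF4 genes. Without WT replicate 1 the number was 4 for phosphatidylcholine synthesis, 4 for lipogenesis, 3 for xenobiotic metabolism, 3 for acute phase proteins and 2 for the NRF2 response, and without *Pctp*-/- replicate 2 it was 5 for bile acids and 2 for heat shock. Of 21 amino acid genes 2 had an unadjusted p under 0.05, of which *Ddc* was called.

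Markers of other cells that bulk liver can hold were summed for each liver. The sums of all 12 marker lists overlapped between the genotypes: macrophage markers were 128 to 238 FPKM in WT and 132 to 333 FPKM in *Pctp*-/- livers, endothelial markers 64.8 to 80.8 and 64.0 to 95.1 FPKM, and erythroid markers 252 to 760 and 405 to 722 FPKM. All 12 macrophage markers had a higher mean in *Pctp*-/- livers (51.8% of all tested genes did), with a median of 0.24. Of the 12, 0 had an unadjusted p under 0.05 (6.98% of all tested genes did). Without *Pctp*-/- replicate 1, 7 of 12 were higher (median 0.04), whereas without *Pctp*-/- replicate 2 the median was 0.59 and 6 of 12 had an unadjusted p under 0.05, and without WT replicate 1 the median was 0.43 and 2 of 12 did. Both tested neutrophil markers were higher on average (median 0.52), and 2 of 2 had an unadjusted p under 0.05 without *Pctp*-/- replicate 2. The neutrophil marker *Ly6g*, the adipocyte markers *Lep* and *Retn*, the muscle markers *Acta1*, *Ckm* and *Mb* and 8 of 10 acinar pancreas markers were listed at 0 in every chow liver. The part of other cells in the differences of *Ccl9* or the interferon-stimulated genes was not tested.

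The effect of the knockout on chow was set against that in the separate MCD-fed mice. The 11 called genes outside the 20 Mb around *Pctp* had log2 differences of at most 0.70 in size on MCD, and 0 of the 11 were called there (smallest adjusted p = 0.289). On MCD, *Zbtb16* was at 2.81, 3.28 and 4.47 FPKM in WT and 3.95, 3.59 and 3.17 FPKM in *Pctp*-/- livers, *Dbp* at 8.10, 9.09 and 16.1 FPKM and 5.59, 17.1 and 38.5 FPKM, and *Bcl6* at 4.54, 5.90 and 3.49 FPKM and 3.06, 4.43 and 3.21 FPKM. For *Zbtb16* both MCD groups lay close to the low values of the chow-fed *Pctp*-/- livers, whereas for *Bcl6* both lay near the chow-fed WT livers. The difference of the knockout effect between the diets was tested directly, and passed for 12 genes (0.0963% of those tested). Of the 17 genes called on chow, 3 were among them: *Zbtb16* (difference 2.14, adjusted p = 0.0144), *Bcl6* (-2.16, adjusted p = 0.0399) and *Ddc* (-1.37, adjusted p = 0.0488). For *Dbp* (3.70, adjusted p = 0.0783), *Per3* (2.56, adjusted p = 0.0675) and *Bhlhe41* (1.95, adjusted p = 0.0775) it did not pass. The chow and MCD libraries also differed in read mapping (77.59 to 79.41% against 85.66 to 87.55% of reads uniquely mapped), which cannot be told apart from diet but is shared by the genotypes within a diet.

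**Figure D5:**
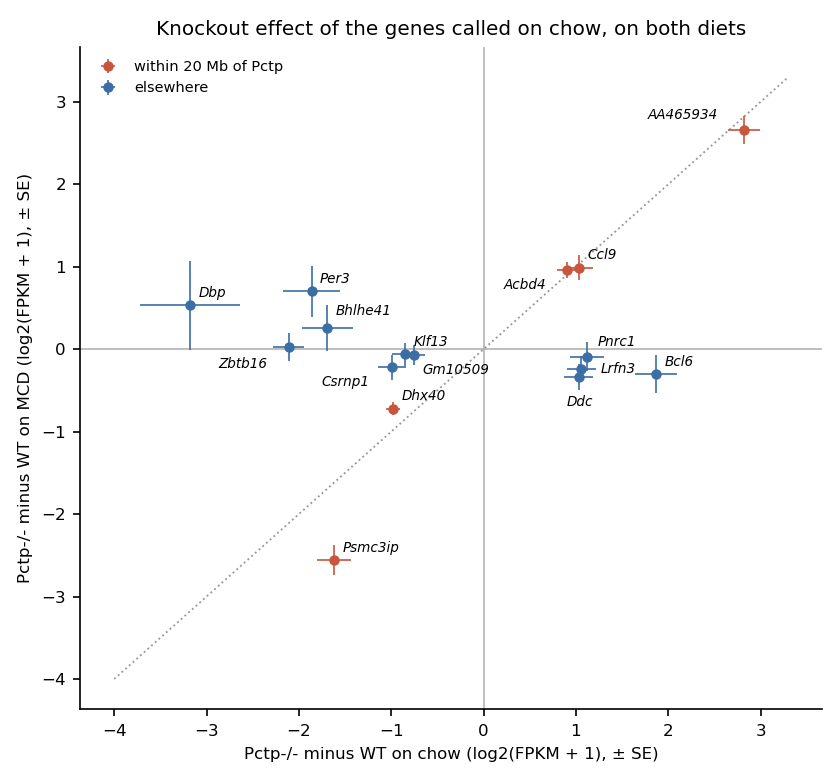
The log2 difference between *Pctp*-/- and WT livers on MCD against that on chow, each with its SE, for 16 of the 17 genes called on chow (*C130046K22Rik*, listed at 0 in the knockout, is left out). Genes within 20 Mb of *Pctp* (red) have the same sign on both axes, near the dotted line of equal effect except *Psmc3ip* (-1.62 on chow, -2.56 on MCD), and the 11 others (blue) lie within 0.70 of 0 on the MCD axis.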

How the data were processed

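Liver RNA of 12 mice was sequenced, 3 in each group of genotype and diet. The authors deposited FPKM per gene and library, aligned per the labels to mm10, and a table of whole read totals and mapping percentages, used here for depth. The aligner, the counting tool and the handling of strand are not given in the sources used here, and FPKM keep no count per gene, so no counting interval could be given. FPKM were not rescaled. Genes reaching a mean of 0.5 FPKM across all libraries were tested on log2(FPKM + 1) with limma 3.58.1 in R 4.3.3, with 1 mean per group and a mean-variance trend, in place of the Wald test on counts named by the study, with two-sided p adjusted by the Benjamini-Hochberg method over all 12466 genes. Log2 differences understate the change of low genes. Positions and exon overlaps came from GENCODE M21 (GRCm38), which held 34490 of the 35275 identifiers, and promoters from RefSeq GRCm38.p6.

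The genes given by name were *Pctp*, all called genes, the next 12 by p, up to 4 genes of each list with an unadjusted p under 0.05 by size of the log2 difference, and the PPARs, *Acot13*, *Stard7* and *Stard10*. Others are said to have been named after their values were seen or are there to show the rest of a list. There were 29 pathway and 12 marker lists, and 647 of their 649 symbols were in the table. The comparison, the lists and the rule were chosen with earlier results of these data known, so list counts are descriptions. Replicate numbers are shared by the groups in the labels, but count different mice. The sources do not say that the mice of a group were separate litters. The p-values rest on the spread within groups over all 12 libraries, drawn toward the trend over genes. A simulation with independent normal spread checked that limma found part of the changes put into it. It held no library that stood apart, so it does not measure the error in these livers. Alternatives were the pseudocount, the filter, the scaling, a fit to the chow libraries alone, blocking on replicate number, limma without its trend or with robust estimation, a minimum fold, exon overlaps and leaving out each chow library. Some genes of the lists are not reported here by name. Figures were drawn with matplotlib.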

Additional observations from a re-analysis of the deposited data

Results flagged for a closer look

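The knockout effect differed between chow and MCD, by limma's test of the difference itself with an adjusted p under 0.05, in 12 genes, given here as the effect on MCD minus the effect on chow on the log2 scale. For *Zbtb16* (2.14), *Bcl6* (-2.16) and *Ddc* (-1.37) the effect was on chow. For the other 9 the chow livers gave no call and the MCD livers did. The filter took the mean over all 12 libraries, so genes near 0 on chow could enter through the MCD livers. Such genes could hardly be called on chow. With the minimum set over the chow libraries, 3 genes differed between the diets. The number fell likewise when only the pseudocount was changed, to 3 at 0.1 and 4 at 0.5. How much of either fall came from genes near 0 on chow was not tested. *Csad*, which makes hypotaurine for taurine, had a difference of -2.08: it was at 166, 119 and 158 FPKM in WT and 158, 134 and 128 FPKM in *Pctp*-/- livers on chow, and at 62.3, 94.9 and 59.2 FPKM and 17.8, 14.8 and 13.3 FPKM on MCD. *Cyp3a41a*, a female-biased cytochrome with near-identical relatives, had one of 2.51: it was listed at 0 in all 6 chow livers, where no call was possible. The imprinted noncoding RNAs *Meg3* (1.51) and *Rian* (1.43), neighbors on chromosome 12, were at 0.116 to 0.498 FPKM and 0.0922 to 0.231 FPKM in the chow livers. There both stayed below the minimum of 0.5 FPKM, and their genotypes overlapped. *Gm49342* had a difference of -0.90, *Htatip2* of -0.96, *Fam25c* of -1.75, *Cyp2c55* of -1.61 and *Mug1* of 0.95.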

How the results depend on the processing

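The number of genes changed on chow, 17 in the analysis reported, was 10 with no minimum FPKM, 11 with a mean FPKM of at least 5, 4 with only the 6 chow libraries, 11 without genes whose exons overlap another gene, and 8 to 34 with a chow library left out. It was 12 to 19 under the other alternatives without a block. Of the 6 genes near *Pctp*, 3 were called with only the 6 chow libraries. The number of genes whose effect differed between the diets, 12 as reported, was 3 with a pseudocount of 0.1, 4 with a pseudocount of 0.5, 3 with the minimum set over the chow libraries, 6 with median-of-ratios scaling, 7 without the mean-variance trend, 2 without genes whose exons overlap another gene, and 3 to 60 with a chow library left out. The causes were not tested. With the replicate number as a block, 32 genes were changed on chow and 59 differed between the diets, but the numbers were not taken as pairs: the correlations of the deviations of same-numbered WT and *Pctp*-/- chow livers were 0.065, 0.192 and 0.063. No direction of the 17 genes reversed under any alternative that tested them, which their non-overlapping groups largely fixed beforehand. *AA465934* and *Zbtb16* passed in 18 of 18 alternatives, *Dbp* in 5 of 17, *Per3* in 6 of 17 and *Bhlhe41* in 6 of 16. FPKM give no count per gene, so depth limits low genes such as *Pctp* in a way that could not be put as an interval.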
